A study of Danio rerio with 2 samples.

Results

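Among GFP-positive cells sorted from zebrafish embryos at the 20 somite stage, 74 of 2084 kept cells carried RNA of neural genes. They were chosen by measured values: a kept barcode was a neural-type cell, called a member here, when it held at least 1 unique molecular identifier (UMI, the tag that marks 1 captured mRNA molecule) for at least 4 of the 7 genes elavl3, her4.2, her4.4, mdkb, her15.1, gadd45gb.1 and si:ch211-193l2.3. A barcode was kept with 2500 or more UMIs, with over 200 genes but no more than 3500, and with a mitochondrial part of its counts that did not pass 5%. The homozygous library held 18 members among 474 kept cells and the heterozygous library 56 among 1610. The levels of these 7 genes are therefore a description of how the cells were picked and not a result, and the same holds for every comparison of the members with the other cells.

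The study asked what becomes of vascular progenitors when the transcription factor Etv2 is missing. Embryos were homozygous or heterozygous for etv2ci32Gt, a gene trap in which gal4 sits in the etv2 locus and drives UAS:GFP, so that cells using the etv2 promoter fluoresce and the trapped copy is disrupted. Both groups carry the trap and the UAS:GFP transgene, no library without the trap was analysed here, and the heterozygous embryos serve as the reference. For each genotype a pool of whole embryos was dissociated, GFP-positive cells were sorted, and 1 droplet-based Chromium library of mRNA 3' ends was made, so that genotype differences lack any check by replicates and none is tested below.

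In the early vertebrate nervous system, dividing progenitors line the neural tube and express transcription factors of the SoxB1 family. Some of them start to express proneural basic helix-loop-helix factors such as Neurog1 and the Delta ligands, which activate Notch receptors on neighbouring cells. Notch switches on repressors of the Hes/Her family, in zebrafish among others those of the her4 and her15 groups, and these hold the neighbours in the progenitor state. Cells that escape this lateral inhibition leave the cell cycle and turn on neuronal genes such as elavl3, also called HuC, which encodes an RNA-binding protein of young neurons. Placodes, thickenings of the head ectoderm beside the neural plate, form sensory neurons through many of the same proneural genes.

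The members were of ordinary depth for these libraries. Members held a median of 14635.5 UMIs in the homozygous and 10184.5 UMIs in the heterozygous library, against 13025.5 and 10036.5 UMIs in the other kept cells, and the shallowest member held 2880 UMIs. The cells of the homozygous library were thus deeper, which raises the number of genes seen per cell there. No barcode was shared by kept cells of both libraries. Expression is given below as the CPM of a group of cells, its summed count of a gene scaled to 1000000 UMIs of that group, and a ratio is the CPM of one group over that of another, with an exact 95% interval that covers counting error only. A gene is called higher or lower when its ratio is at least 2 or at most 0.5.

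Most kept cells held none of the 7 genes, and few cells lay directly below the limit. In the homozygous library 378 cells held none, 61 held 1, 14 held 2 and 3 held 3 of them. The heterozygous library had 1274, 241, 27 and 12 such cells. Just inside the limit, with 4 genes, lay 6 homozygous and 16 heterozygous cells, in which her15.1 stood at 1781 and 1208 CPM and her4.2 at 537 and 315 CPM. Just outside it, in the 3 homozygous and 12 heterozygous cells with 3 genes, her15.1 stood at 1173 and 327 CPM and her4.2 at 206 and 55.8 CPM. The heterozygous cells just outside held much elavl3, 129 UMIs of which 77 lay in 1 cell, and they are taken up again with the elavl3-rich cells. The number of members depended on depth and on the limit. After thinning to 2500 UMIs, 11 homozygous and 34 heterozygous cells met the rule, and without thinning 12 and 40 held at least 5 of the 7 genes.

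**Figure D1:**
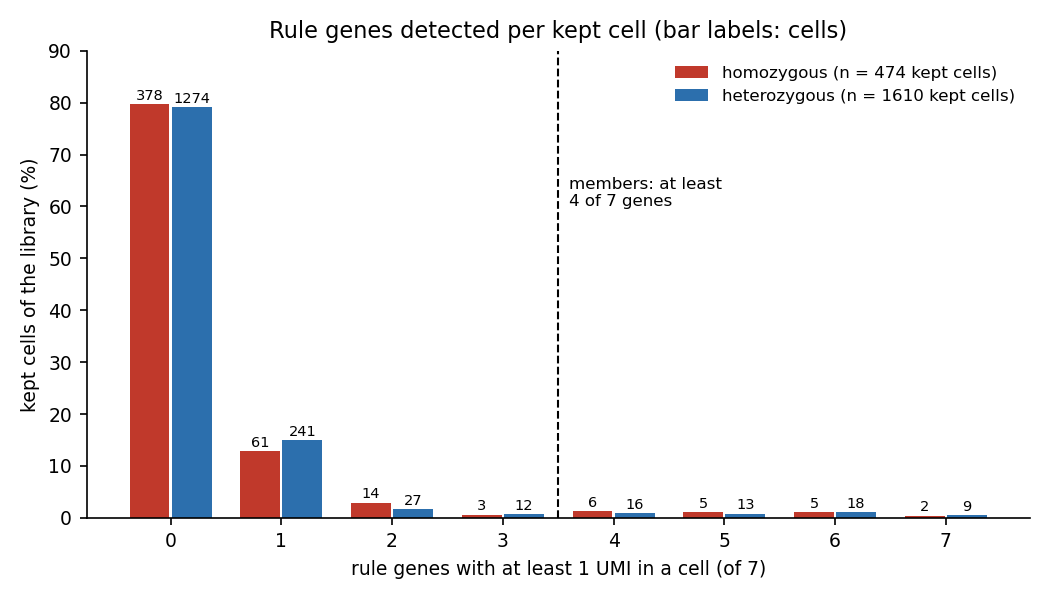
Share of kept cells in percent (vertical axis) that held 0 to 7 of the 7 genes of the rule (horizontal axis), for the homozygous (red) and heterozygous (blue) libraries, with the number of cells above each bar. Cells right of the dashed line, 18 homozygous and 56 heterozygous ones, are the members, and only 3 and 12 cells lie directly left of it.

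The genes of the rule differed widely among members. The most abundant was her15.1, a Notch-responsive repressor, at 1785 CPM in homozygous and 1678 CPM in heterozygous members, with 2 to 102 UMIs per homozygous member (median 15) and 0 to 129 per heterozygous member (median 12). Another such repressor, her4.2, stood at 1447 and 1254 CPM, with 0 to 115 UMIs (median 3) in homozygous and 0 to 84 (median 5.5) in heterozygous members. Of the lower genes, mdkb, which encodes the secreted heparin-binding factor midkine b, stood at 403 and 438 CPM. The neuronal gene elavl3 was patchy: 8 of 18 homozygous members held it, with 28 of their 41 UMIs in 1 cell, and 35 of 56 heterozygous members held it, with 0 to 26 UMIs each. The stress-inducible growth regulator gene gadd45gb.1 was seen in 7 homozygous and 30 heterozygous members. In the other kept cells her15.1 stood at 49.8 CPM in the homozygous and 34.3 CPM in the heterozygous library, and the other 6 genes of the rule at 13.4 CPM or less.

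The files give the same symbol to near copies of these repressors. The symbols her4.2 and her15.1 each cover 2 identifiers, which a reference table of gene names calls her4.2 and her4.5, and her15.1 and her15.2, and their counts were summed under the symbol. In the RefSeq gene order of the assembly GRCz12tu, her12, her4.2, her4.1, her4.3, her4.4 and her4.5 follow each other, and so do her2, her15.1 and her15.2. How reads were divided between copies of such similar sequence cannot be told from the counts, so values of single her4 and her15 genes are uncertain.

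Neural genes that the rule did not use were abundant in the members, as the name of the class has it. The SoxB1 gene sox3 stood at 484 CPM in homozygous and 563 CPM in heterozygous members, against 24.1 and 29.2 CPM in the other kept cells. Another SoxB1 gene, sox19a, was at 276 and 233 CPM in members against 2.81 and 3.35 CPM. The RNA-binding protein gene msi1 was at 157 and 143 CPM in members against 6.61 and 4.82 CPM, and gfap, an intermediate filament gene of radial glia, at 192 and 103 CPM against 1.98 and 2.80 CPM. In contrast sox2 was sparse, with 9 UMIs in 6 of 18 homozygous and 14 UMIs in 8 of 56 heterozygous members. After every cell was thinned to 5000 UMIs, with no homozygous and 7 heterozygous members too shallow for it, sox19a was seen in 61.1% of 18 homozygous and 51.0% of 49 heterozygous members (66.7% and 64.3% before thinning), against 0% and 0.336% of erythroid-type cells, whose median depth was 19287 and 15721.5 UMIs, so that its detection in members lay above this background.

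Markers of other lineages were low in the members, with exceptions in single cells. None of the 9 homozygous and 13 heterozygous endothelial and progenitor genes measured was higher in members, and all were lower. The hematopoietic progenitor gene lmo2 stood at 15.4 CPM in homozygous and 55.2 CPM in heterozygous members, against 810 and 2243 CPM in the other kept cells. RNA of etv2 itself, whose promoter drives the GFP used for sorting, was not seen in homozygous members, where 0 counts allow up to 14.2 CPM by the exact interval, and was at 10.7 CPM in heterozygous members, as 6 UMIs in 4 cells. The other kept cells held 15.7 and 302 CPM of etv2, epidermal-type cells 0 and 17.3 CPM, and empty droplets 43.7 and 272 CPM, so the level in members was not above that of free RNA. As the trap disrupts both copies in homozygous embryos, the etv2 count there does not tell whether its promoter was in use. The embryonic globin gene hbbe3 was at 138 and 73.0 CPM in members, against 6490 and 3671 CPM in empty droplets. All 9 erythroid genes were lower in members of both libraries. Of 9 neural crest genes, sox10, foxd3, snai2 and mitfa had no count in any member. Of those measured, 0 of 2 were higher and 2 lower in homozygous members, and 2 of 4 higher and 2 lower in heterozygous members. The higher ones were tfap2a, at 23.1 against 5.85 CPM with 10 of its 13 UMIs in 1 cell, and snai1b, at 19.6 against 4.02 CPM on 11 UMIs. The epidermal keratin gene krt4 had 0 counts in homozygous members but 63 counts in 7 heterozygous members. In the heterozygous library 2 members also met the epidermal rule and 4 held at least 3 of 7 endothelial genes, and no homozygous member did either. Whether these are doublets was not tested.

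Genes of the Notch pathway and of neural progenitors were among those raised most outside the rule. Of 5793 homozygous and 8607 heterozygous genes with at least 50 counts in members and other kept cells together, 9.03% and 9.17% were at least 2-fold higher in members, and 27.2% and 27.5% at least 2-fold lower. The median ratio over all these genes was 0.871 in the homozygous and 0.847 in the heterozygous library. Genes that reach 50 counts through the members alone had to be higher, so the counts per list describe the members and support nothing.

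Of the Notch-responsive her genes, 9 of 11 measured in the homozygous and 12 of 13 in the heterozygous library were higher in members, and 1 and 0 were lower. Summed over the list they made up 6110 CPM in homozygous and 5608 CPM in heterozygous members, against 587 and 285 CPM in the other kept cells. The rule fixes part of this. A near copy that it does not name, her4.3, was at 142 and 128 CPM in members against 0.165 and 0.305 CPM in the other kept cells. In the latter it was seen in 1 and 5 cells. Because reads of the her4 copies may not be separable, the value of her4.3 is not independent of the rule. Other her genes of the list varied. Homozygous and heterozygous ratios of her2 were 62.8 (44.1 to 90.9) and 53.1 (42.8 to 66.2). The ratio was 15.6 (12.4 to 19.6) in the homozygous and 27.1 (23.4 to 31.4) in the heterozygous library for her12, 8.81 and 7.77 for her8a and 2.21 and 5.19 for her9. It was 0.748 and 1.22 for her6, which passed neither limit. Of the Notch ligands, receptors and their partners, 3 of 6 measured were higher and 1, notch2, lower in homozygous members, and 7 of 13 were higher and 3, dll4, dlc and notch2, lower in heterozygous members. The Delta gene dla was at 165 and 344 CPM in members against 17.8 and 21.3 CPM elsewhere, with ratios of 9.24 (6.34 to 13.3) and 16.2 (13.5 to 19.3). A related ligand gene, dlb, was 65.7-fold higher (46.4 to 94.4) in heterozygous members, and in the homozygous library its 12 UMIs lay in 1 member. The fringe glycosyltransferase gene lfng was 4.52-fold and 4.78-fold higher, and the receptor gene notch1a was at 1.98 and 3.75, past the limit only in the heterozygous library.

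Neural progenitor genes followed the same pattern. Of this list 7 of 10 measured genes in the homozygous and 13 of 14 in the heterozygous library were higher, and 1 in each was lower. The ratio was 98.3 (57.4 to 178) and 69.6 (50.4 to 97.1) for sox19a, 20.0 (15.7 to 25.6) and 19.3 (16.7 to 22.3) for sox3 and 96.7 (50.8 to 200) and 36.8 (24.6 to 55.5) for gfap. The POU factor gene pou3f1 was 81.3-fold and 70.8-fold higher. The genes si:ch211-193l2.4 and si:ch211-193l2.5, which share a clone name with a gene of the rule, were at 960 and 1531 CPM in homozygous and 789 and 1601 CPM in heterozygous members. Against the other kept cells they were 484-fold and 122-fold higher in the homozygous, and 244-fold and 133-fold higher in the heterozygous library. They are not on the list of neural progenitor genes. In the gene order another gene of that clone name, si:ch211-193l2.6, directly follows her15.2. Whether their values are independent of the rule was not tested.

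Proneural genes were also high in heterozygous members, each in part of the cells, and in few cells of the homozygous library. In the heterozygous library 8 of 8 measured genes of that list were higher and none lower, and in the homozygous library, where most of the list did not reach 50 counts, 0 of 3 were higher and 1 was lower. The factor neurod4 was at 212 CPM in heterozygous members against 0.915 CPM in the other kept cells, with a ratio of 232 (135 to 427), and neurod1 at 253 CPM against 1.40 CPM, with a ratio of 180 (116 to 294). In the heterozygous library hes6, a repressor that promotes neurogenesis, was seen in 40 of 56 members, neurod4 in 17 and neurod1 in 16. Neurogenin 1 (neurog1), which acts before both, was at 72.9 and 96.2 CPM in homozygous and heterozygous members, with ratios of 221 (53.2 to 1953) and 60.7 (37.3 to 101). In the homozygous library the 20 UMIs of neurod1 all lay in 1 member, as did 91.3% of those of neurod4, so that these values describe that cell.

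Genes of later neurons were mostly missing. The neuronal differentiation list had 7 of 10 higher genes in the homozygous and 10 of 12 in the heterozygous library, with 2 lower in each. Both counts of higher genes include elavl3, which the rule used. The splicing regulator gene nova2 was at 365 and 426 CPM in members, a ratio of 27.6 (20.3 to 37.6) and 3.25 (2.83 to 3.72). Yet elavl4, expressed in maturing neurons, had no count in any member, and the growth cone gene gap43 had 0 counts in homozygous and 1 in heterozygous members. The stathmin gene stmn1b was at 49.9 CPM, all in 1 homozygous member, and at 90.8 CPM in heterozygous members.

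Many members held RNA of the cell cycle. Of 12 S phase genes 6 were higher in homozygous and 9 in heterozygous members, with none lower, and their summed level was 3504 and 3180 CPM in members against 1310 and 1231 CPM. The replication clamp gene pcna was 2.88-fold (2.54 to 3.26) and 2.21-fold (2.02 to 2.42) higher, and rrm2, a subunit of the enzyme that makes deoxynucleotides, 4.71-fold (4.13 to 5.36) and 4.55-fold (4.13 to 5.01). Of the G2/M genes 3 of 16 and 5 of 17 were higher and none lower. Genes induced by p53 were not raised: 0 of 6 and 0 of 10 were higher, and 2 and 6 were lower.

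**Figure D2:**
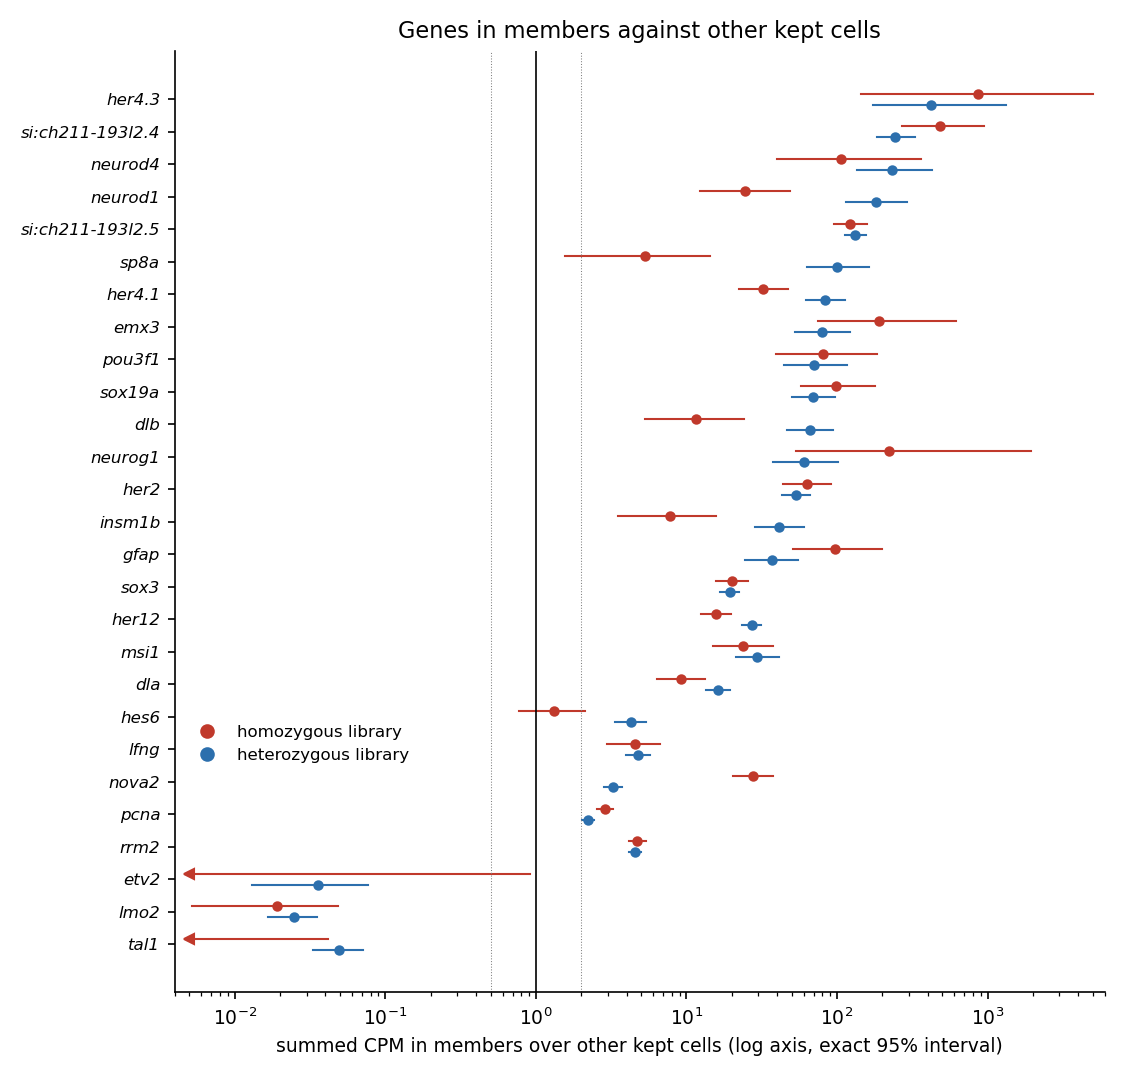
Ratio of summed CPM in members over other kept cells (log axis) for 27 genes, in the homozygous (red) and heterozygous (blue) libraries, with exact 95% intervals for counting error. Arrows mark 0 counts in homozygous members and dotted lines mark 2-fold. The points of her4.3, sox19a, sox3 and gfap lie right of 2-fold in both libraries and those of lmo2 left of it, whereas hes6 lies at 1.31 in the homozygous and 4.28 in the heterozygous library.

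The members spread along a range of elavl3 against her4. Those with more elavl3 than summed her4 UMIs are called elavl3-high and those with fewer her4-high. By this measure 2 of 18 homozygous members (11.1%, exact interval 1.38% to 34.7%) and 7 of 56 heterozygous members (12.5%, 5.18% to 24.1%) were elavl3-high. The difference of -1.39 percentage points (-15.1 to 21.2) lay within counting error. Her4-high members numbered 16 and 47, 2 heterozygous members tied, and 4 homozygous and 11 heterozygous members lay within 2 UMIs of the dividing line, so the groups are ends of a range and not types. Summed her4 had a median of 6.28 UMIs per 10000 in homozygous and 14.8 in heterozygous members, and reached 185 and 117. In the homozygous library the elavl3-high end was not an elavl3-rich end: its 2 cells held 1 elavl3 and no her4 UMI each. The 7 heterozygous elavl3-high members were mixed, some with 10 to 26 elavl3 UMIs and others with 1 or 2. Among the members of both libraries most elavl3 sat in cells that held still more her4. As the rule uses her4.2 and her4.4, this is a description and does not hold for the elavl3-rich cells outside the members.

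**Figure D3:**
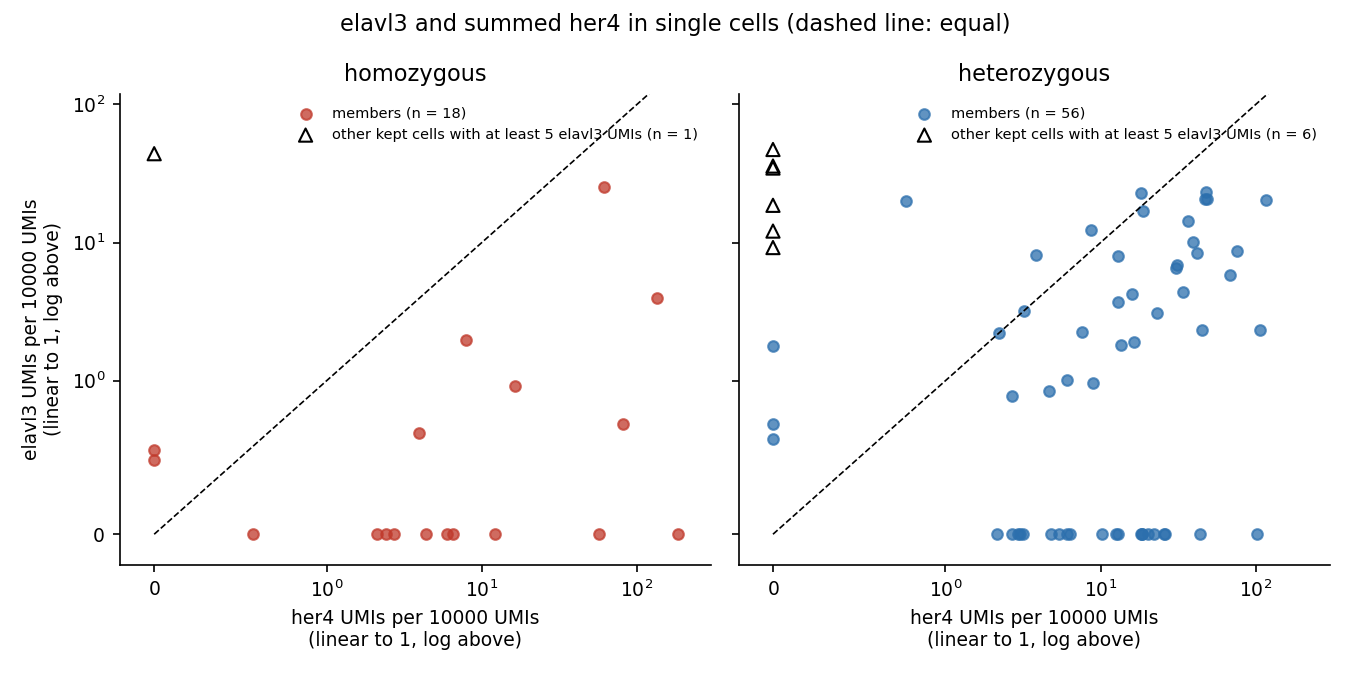
UMIs of elavl3 (vertical axis) against summed her4 UMIs (horizontal axis), both per 10000 UMIs of the cell, on axes linear to 1 and logarithmic above, for homozygous (left) and heterozygous (right) members as filled points. Open triangles are other kept cells with at least 5 elavl3 UMIs, 1 homozygous and 6 heterozygous ones, all at 0 her4, whereas most elavl3-rich members lie below the dashed line of equal values, with more her4 than elavl3.

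Between these ends, Notch-responsive genes were lower in the elavl3-high members. Of 835 homozygous and 1616 heterozygous genes with at least 30 counts in both groups together, 5.39% and 5.63% were higher and 10.4% and 10.8% lower in elavl3-high members. In the heterozygous library 9 of 10 her genes were lower and none higher, of which the her4 genes are used by the split. Outside it, her12 had 1 count in elavl3-high against 358 in her4-high members, a ratio of 0.0148 (0.000373 to 0.0829), and her6 had 0 against 94. In the homozygous library her12 had 0 against 130 counts, and her2, at 0.159 (0.0632 to 0.333) in the heterozygous, was at 0.700 in the homozygous library. Among the 12 highest heterozygous ratios, atp1b3a, a subunit of the sodium pump, was at 445 CPM in elavl3-high against 112 CPM in her4-high members, which is 3.97-fold higher (2.55 to 6.13), with 3.57 in the homozygous library. The Wnt secretion factor wls was 3.36-fold higher (2.102 to 5.29), with 2.60 in the homozygous library. The co-chaperone gene stip1 led with 4.28 (2.12 to 8.52) but was at 0.745 in the homozygous library. Several regional genes had 0 counts in the 7 elavl3-high members, among them dlx3b (60 counts in her4-high members), dlx4b (44), sp8a (85) and fezf2 (38). The proneural genes split, with ebf2 and ebf3a higher and neurod1, neurod4 and neurog1 lower in elavl3-high members. With 7 cells at one end, single cells weigh heavily in all of these values.

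A split by elavl3 alone, chosen after these values were seen, turned several of them round. Of the heterozygous members, 16 held at least 5 elavl3 UMIs and 21 held none. In the elavl3-rich members neurod1 had 132 counts, ebf2 44 and ebf3a 53, and each had 0 in members without elavl3. Of dlb there were 93 counts against 2, a ratio of 60.2 (16.2 to 505), and of neurod4 106 against 1. The ratio of dla was 4.04 (2.72 to 6.13), of myt1a, a zinc finger gene of newborn neurons, 22.7 (5.82 to 194) and of stmn1b 7.40 (3.28 to 19.6). Over all 1165 genes with at least 30 counts in this heterozygous split, 8.50% were lower in the elavl3-rich members. For the minimum of 10 counts used next, and for the homozygous library, no such share is given, so the counts per list are descriptions. Of 13 neural progenitor genes with at least 10 counts, 8 were lower and 1 higher in the elavl3-rich members, with sox19a at 61.2 against 383 CPM and a ratio of 0.160 (0.0739 to 0.309), and gfap at 0.185 (0.0471 to 0.529). The higher one was the intermediate filament gene vim, with 62 against 4 counts, a ratio of 20.1 (7.46 to 76.0), and pou3f1 and fabp7a were at 1.29 and 0.832. With 2 elavl3-rich and 10 members without elavl3, the homozygous library had 3 of 11 such genes higher and 3 lower, with gfap at 1.15 and sox3 at 1.02. The repressors did not move as one group: her4.2 was 2.55-fold higher (2.13 to 3.06) in elavl3-rich members, her15.1 was at 0.840 (0.712 to 0.990), and her2 and her8a were lower, at 0.331 and 0.0632. Members without elavl3 could enter only through the other genes of the rule, her4.2 and her15.1 among them. The ratios of these 2 genes are therefore a description. The ratio of dlx3b was 5.34, of dlx4b 14.2 and of sp8a 7.48, all opposite to the split of elavl3 against her4, and atp1b3a and wls were at 0.481 and 0.419. Of the heterozygous counts, 142 of 249 of elavl3 and 138 of 142 of neurod1 lay in 16 members with placode genes, described below. How far the split by elavl3 follows those members was not tested.

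In single cells several proneural genes were seen together with elavl3. As elavl3, her4.2 and her4.4 are genes of the rule, much of such overlap is fixed by how the members were chosen, and the counts are a description. All 16 heterozygous members with neurod1, all 15 with ebf2 and all 11 with ebf3a also held elavl3, as did 22 of 23 with dlb, 16 of 17 with insm1b and 16 of 17 with neurod4, among 35 of 56 members with elavl3 in all. The earlier factor neurog1 was seen in 14 members, 9 of them with elavl3, and gfap in 13 members with and 12 without elavl3. Members with at least 5 UMIs of 7 neurogenic genes numbered 2 homozygous and 22 heterozygous cells. All 22 of the heterozygous ones held her4, with a median of 32.6 her4 UMIs per 10000, and of the other 34 members 31 held it, with a median of 9.52.

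Most cells that were rich in elavl3 but outside the rule carried genes of later neurons. In the homozygous library 1 such cell with 63 elavl3 UMIs, and in the heterozygous library 6 cells with 7 to 77, had at least 5 elavl3 UMIs and fewer than 4 genes of the rule, and none held her4. They held 63 and 146 elavl3 UMIs in all, against 41 and 249 in the members, so that a rule with 3 her genes among its 7 leaves out part of the elavl3 in these libraries. In the 6 heterozygous cells elavl4 stood at 909 CPM, seen in 5 of 6 cells, against 0 in the 56 members, and gap43 at 398 against 1.78 CPM. The G protein subunit gene gng3 was at 776 against 5.34 CPM, stmn1b at 2025 against 90.8 CPM and myt1a at 1287 against 83.7 CPM. The S phase genes were at 435 against 3180 CPM and the her genes at 133 against 5608 CPM. The cell with 77 elavl3 UMIs held 31 of the 48 elavl4 and 10 of the 21 gap43 UMIs. Another, with 19 elavl3 UMIs, held no elavl4, gap43 or stmn1b. The homozygous cell held elavl4, gap43, stmn1b and myt1a too, and no UMI of an S phase or her gene on the lists. Because elavl3 and the rule chose these cells, the values are a description.

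Members held transcription factors of several levels of the neural axis, mostly 1 level per cell, with those of the spinal cord in 2 homozygous cells only at the limit used here. With at least 3 UMIs of a list as the limit, forebrain genes were seen in 7 homozygous and 24 heterozygous members, midbrain and boundary genes in 6 and 7, hindbrain genes in 6 and 18 and spinal cord Hox genes in 2 and 8. All 11 genes of the spinal list with at least 50 counts were lower in homozygous members than in other kept cells. Of the 9 UMIs of that list in homozygous members, 7 were of hoxd4a, in 2 cells, a gene that did not reach 50 counts. In the heterozygous library 5 of 16 were higher and 2 lower. Of the 4 lists, 11 of 18 homozygous and 43 of 56 heterozygous members held exactly 1, 5 and 7 held 2, and 2 and 6 held none. Forebrain and midbrain genes met in 1 member of each library. Hindbrain and spinal genes met in the 2 homozygous members with spinal genes and in 4 of the 8 heterozygous ones. With any UMI as the limit, 9 and 24 members held only forebrain or midbrain genes, 5 and 17 only hindbrain or spinal genes, 3 and 13 both, and 1 and 2 neither.

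The leading gene of each level was patchy in both libraries. The forebrain gene emx3 was seen in 3 homozygous and 19 heterozygous members, at 157 and 160 CPM, and foxg1a, a telencephalic factor, in 2 and 13. The midbrain and boundary gene en2b had 63 counts in each library, in 5 homozygous and 6 heterozygous members. Krox20 (egr2b), of rhombomeres in the hindbrain, was seen in 3 and 2 members and hoxb3a in 3 and 13. The caudal factor gene cdx4 was seen in no homozygous and 8 heterozygous members, with 0 against 59 counts. Along the other axis, dorsal genes such as zic2a and pax3a reached 3 UMIs in 8 homozygous and 23 heterozygous members, intermediate genes in 9 and 8, and ventral genes in 1 and 9. The ventral gene olig2 of motor neuron progenitors was seen in 0 and 6 members and shha in 0 and 3, while dbx1a, of the middle of the neural tube, was seen in 3 and 0.

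**Figure D4:**
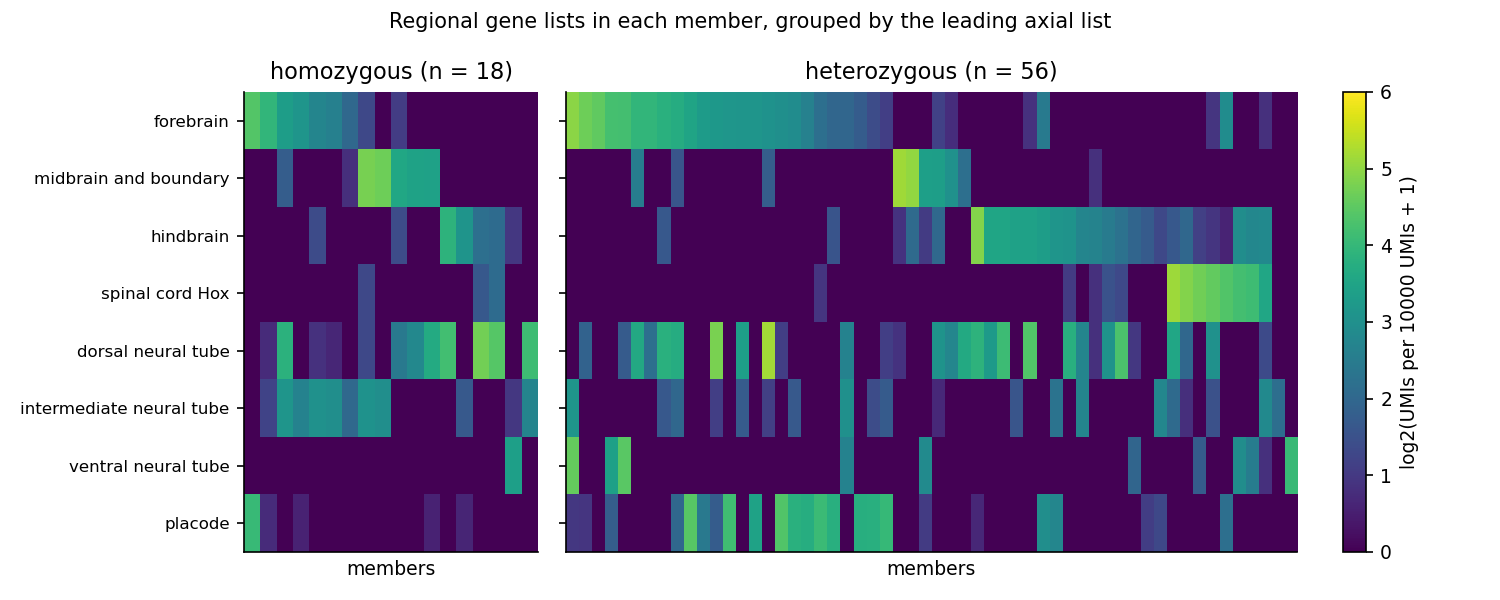
Summed UMIs of 8 regional gene lists (rows) in each member (columns), as log2 of UMIs per 10000 plus 1 (colour), for 18 homozygous and 56 heterozygous members grouped by their leading axial list. Most columns are bright in 1 of the 4 axial rows, and the placode row is bright mainly in heterozygous members, 12 of whose 16 placode members also hold at least 3 UMIs of forebrain genes.

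A group of members carried genes of placodes, which goes against a purely neural tube reading of the class. At least 3 UMIs of 7 placode genes, among them the preplacodal homeobox genes dlx3b, dlx4b and six1b and their co-activator eya1, were found in 1 of 18 homozygous members (5.56%, 0.141% to 27.3%) and 16 of 56 heterozygous members (28.6%, 17.3% to 42.2%). The difference was -23.0 percentage points (-36.7 to -0.406). This limit was set after the values were seen. Of these cells 1 homozygous and 12 heterozygous ones also held at least 3 UMIs of forebrain genes, a list that includes emx3 and foxg1a. The placode list was not raised as a whole. Against other kept cells, 0 of 4 measured genes were higher and 4 lower in homozygous members. In heterozygous members 4 of 6 were higher and 1 lower. There the unnamed genes six1a, foxi1 and pitx3 stood at 7.12, 1.78 and 1.78 CPM, against 12.5, 2.93 and 17.0 CPM in other kept cells.

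Among heterozygous members some proneural genes were much higher in the 16 placode members. They held neurod1 at 946 CPM in 13 of 16 cells, against 9.62 CPM in 3 of the other 40 members, neurod4 at 624 against 67.4 CPM and insm1b at 377 against 48.1 CPM. Past the limit were also ebf2, at 2.97 (1.625 to 5.42) on 25 against 24 counts, and ebf3a, at 7.40 (3.99 to 14.5) on 39 against 15. Other genes of that list were spread more evenly: neurog1 had 17 against 37 counts, a ratio of 1.31 (0.691 to 2.38), and 55 of 82 counts of hes6 lay in the other 40 members. The zinc finger gene sp8a was at 534 against 16.8 CPM and so 31.7-fold higher (14.7 to 81.5). Their elavl3 was 3.78-fold higher (2.92 to 4.90), at 973 against 258 CPM, and her4.2 was at 2309 against 883 CPM, while her15.1 stood at 1699 against 1670 CPM. Some neural progenitor genes were lower in the placode members: sox19a was at 54.8 against 296 CPM, and gfap had 1 against 57 counts. In contrast sox3 passed no limit, at 404 against 618 CPM and a ratio of 0.654 (0.484 to 0.87). The repressor genes her12 and her6 were not lower, at 1.91 (1.53 to 2.37) and 1.11 (0.686 to 1.76). The midbrain gene en2b had 0 against 63 counts. The epithelial adhesion gene epcam was at 260 CPM in 9 of 16 cells against 2.41 CPM in 1 of 40, and krt4 was seen in 6 of 16 against 1 of 40 cells, so epithelial and epidermal markers moved with this group. Their part in it was not tested. The 1 homozygous placode member held all homozygous counts of neurod1 (20), insm1b (11), ebf2 (5), ebf3a (7) and dlb (12) and 28 of 41 of elavl3, and none of gfap, sox3 or sox19a.

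The share of neural-type cells differed between the libraries by less than counting error. Members were 3.80% of kept homozygous cells (2.27% to 5.94%) and 3.48% of kept heterozygous cells (2.64% to 4.49%), and the shares differed by 0.319 percentage points (-1.39 to 2.59). A share depends on what else was sorted, and the libraries differ in that: 143 homozygous and 1052 heterozygous kept cells outside the members held at least 3 of 7 endothelial genes. Among kept cells with fewer than 3 of these genes, a denominator added after seeing the data, members were 18 of 331 (5.44%, 3.25% to 8.46%) in the homozygous and 52 of 554 (9.39%, 7.09% to 12.1%) in the heterozygous library, a difference of -3.95 points (-7.30 to -0.259).

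Few genes differed 2-fold between the genotypes within the members. Of 1456 genes with at least 50 counts in members of both libraries together, 2.06% were at least 2-fold higher and 5.08% at least 2-fold lower in homozygous members, with a median ratio of 0.982. The her repressors and SoxB1 genes lay within 2-fold: her4.2 was at 1447 CPM in homozygous and 1254 CPM in heterozygous members, a ratio of 1.15 (1.02 to 1.31), her15.1 at 1.06 (0.950 to 1.19), sox19a at 1.19 (0.876 to 1.59) and sox3 at 0.859 (0.693 to 1.06). As her4.2 and her15.1 are genes of the rule, their ratios are a description. These are ratios of sums, and the median member went the other way for her4.2, at 3 UMIs in homozygous and 5.5 in heterozygous members. Summed her4 had a median of 6.28 and 14.8 UMIs per 10000, and 1 homozygous member held 30.5% of the homozygous her4.2 counts. Of 11 genes of the her list 1, the Notch feedback gene nrarpa, was higher and none lower, and of 11 S phase genes none passed the limit. The radial glia gene gfap was at 192 against 103 CPM, with a ratio of 1.86 (1.25 to 2.76). Of 9 G2/M genes 3 were higher, among them the kinase gene aurkb at 2.09 (1.24 to 3.51).

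Most proneural and Delta genes that reached 50 counts were lower in homozygous members. Of 7 proneural genes 6 were lower and none higher, and of 4 Notch ligand and receptor genes all 4 were lower. Genes such as ebf2, with 5 against 49 counts, reach the minimum of 50 mostly through the heterozygous members, which favours lower ratios among the genes counted, so these counts are descriptions, and insm1a, at 1.80 (0.695 to 4.54) on 10 and 12 counts with 9 of the 10 in 1 cell, falls below it. The ratio was 0.304 (0.180 to 0.487) for neurod1, 0.417 (0.254 to 0.655) for neurod4, 0.316 (0.151 to 0.599) for insm1b and 0.220 (0.0684 to 0.549) for ebf2. The 1 proneural gene of the 7 that passed no limit, neurog1, was at 0.758 (0.4245 to 1.3). For dlb it was 0.240 (0.120 to 0.436), at 46.1 against 192 CPM, and for dla 0.480 (0.337 to 0.671), at 165 against 344 CPM. The neuronal gene elavl3 was at 0.355 (0.249 to 0.495) and gadd45gb.1 at 0.305 (0.220 to 0.415). Both are genes of the rule, and homozygous members were deeper, so their ratios are a description, here and in the subset below. Many of the homozygous counts lie in 1 cell, which holds 100% of those of neurod1, insm1b, ebf2, ebf3a and dlb. The placode members, 1 against 16, moved with these genes. Among the 17 homozygous and 40 heterozygous members with fewer than 3 placode UMIs, neurod1 had 0 against 4 counts and only 1 proneural gene, hes6, reached 50 counts, with a ratio of 0.394. Below that minimum neurod4 had 2 against 28 counts, at 0.119 (0.0137 to 0.472), ebf2 0 against 24, insm1b 0 against 20 and ebf3a 0 against 15. On 12 against 37 counts neurog1 was at 0.540 (0.2565 to 1.06), and insm1a had 1 against 5. There dla was at 0.188, elavl3 at 0.202 and gadd45gb.1 at 0.160, dlb had 0 against 60 counts, and her4.2, again a ratio of sums, was at 1.54. Among members with no elavl3 UMI, 10 homozygous and 21 heterozygous ones, no proneural gene reached 50 counts.

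The lowest ratio of the genes named by rank was that of sp8a, at 19.2 CPM in homozygous and 151 CPM in heterozygous members, 0.127 (0.0401 to 0.308). The ratio of myt1a was 0.138 (0.0274 to 0.427) and of dlx4b 0.287 (0.100 to 0.676), and sp8a, dlx4b and neurod1 are genes of the placode members above. In epidermal-type cells dlx4b was lower too, with 0 against 28 counts (0 to 0.412), and sp8a was at 0.675 (0.123 to 2.46). Outside the neural lists, the ubiquitin-conjugating enzyme gene ube2d3 was at 0.154 (0.0405 to 0.417), seen in 3 of 18 homozygous and 36 of 56 heterozygous members, while epidermal-type and erythroid-type cells gave 0.866 and 0.807. The ratio of cited4b, a transcriptional co-activator gene, was 0.321 in members, 0.566 in epidermal-type and 0.610 in erythroid-type cells.

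Among the higher genes, several were higher in other cells of the homozygous library too. The AP-1 family gene jdp2b was at 426 CPM in homozygous and 132 CPM in heterozygous members, with a ratio of 3.23 (2.39 to 4.399), and its ratio was 3.32 in epidermal-type and 4.09 in erythroid-type cells. For junba the ratio was 2.53 in members, 3.22 in epidermal-type and 2.68 in erythroid-type cells. Its partner fosab was at 1689 CPM in homozygous and 768 CPM in heterozygous members, past 2-fold, with ratios of 3.14 in epidermal-type and 1.95 in erythroid-type cells. The ratios of these AP-1 genes were thus above 1 in all 3 classes of cells. The ratio of nop58, which encodes a core protein of small nucleolar RNA complexes, was 2.66 (2.03 to 3.48) in members, at 487 against 183 CPM, against 0.432 in epidermal-type and 0.864 in erythroid-type cells. The nucleolar genes rsl1d1 and nifk were at 2.37 and 2.32 in members, against 0.884 and 0.636 in epidermal-type and 0.995 and 1.099 in erythroid-type cells. The elongation factor subunit gene eef1da was at 2.68 in members, 0.600 in epidermal-type and 0.887 in erythroid-type cells. The eye and forebrain factor gene pax6a was at 2.304 (1.34 to 3.96).

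**Figure D5:**
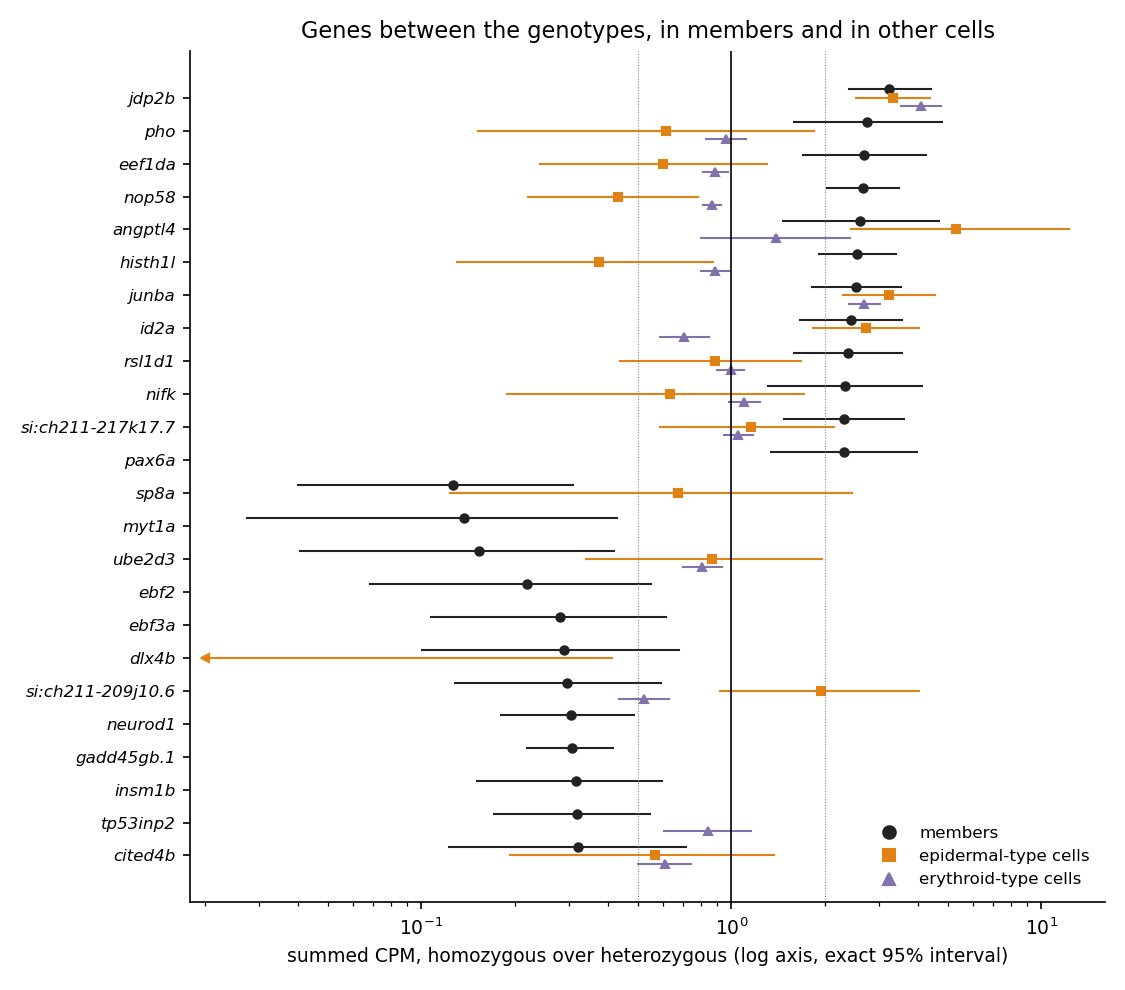
Ratio of summed CPM in homozygous over heterozygous cells (log axis, exact 95% intervals for counting error) for the 12 highest and 12 lowest genes in members (black circles), with the same ratio in epidermal-type (orange squares) and erythroid-type cells (violet triangles) where at least 10 counts were seen. For jdp2b and junba all markers lie right of 2-fold, whereas for nop58, eef1da and rsl1d1 the members lie right of it and the other cells at or left of equality.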

How the data were processed

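Single-cell RNA-seq counts of 2 libraries, 1 per genotype, were analysed. With Cell Ranger (2.0.2 per the submitters' processing notes) the authors mapped reads to GRCz10 and deposited raw counts of all 737280 barcodes per library, 7244035 UMIs in the homozygous and 19256969 in the heterozygous library. Counts of identifiers that share a symbol were summed (391 of 25212 symbols). No doublet caller was run, and members with genes of other cell types were left out as an alternative. Free RNA was estimated from 13 globin genes outside erythroid-type cells at 4.65% of UMIs in the homozygous and 5.98% in the heterozygous library.

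With 1 library per genotype no test was made. Ratios of summed CPM carry exact conditional binomial intervals, shares Clopper-Pearson and differences of shares Newcombe intervals, at 95%, and cover counting error only. Named genes are those of 28 lists and, by rank, the 15 highest heterozygous ratios of members over others (at least 50 counts in members, seen in 20% of them) and the 12 highest and 12 lowest of the other comparisons (at least 30 or 50 counts, no cell with over 25% of them). The splits by elavl3 alone and by placode genes were chosen after values were seen. The members and lists were chosen with earlier results of these data known. Epidermal-type cells held at least 4 of 7 and erythroid-type cells at least 3 of 4 marker genes. Empty droplets were barcodes with 1 to 100 UMIs. The scripts were tested on simulated data. Alternatives changed the rule, its depth, the ratio, the minimum of counts and the split. Python 3.11.15 was used with numpy 2.4.6, scipy 1.17.1, pandas 2.3.3 and matplotlib 3.10.9, and seed 20.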

Additional observations from a re-analysis of the deposited data

Results flagged for a closer look

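For 8 listed genes the ratio of members over other kept cells lay below 0.5 in the homozygous and above 2 in the heterozygous library. The difference between the libraries was not tested, there is 1 library each, and most rest on few UMIs. The ratio of cdx4 was 0 in the homozygous library, with 0 counts in members, and 3.84 in the heterozygous library, with 59. The Hox genes hoxb5b and hoxa10b were at 0 and 0.381 in the homozygous, against 8.34 and 2.22 in the heterozygous library. The placode genes six1b and eya1 were at 0.232 and 0.278, on 1 and 2 counts in homozygous members, against 10.9 and 3.91, on 29 and 23 counts in heterozygous members. The Notch target hey1 was at 0.332 against 7.15 and the zinc finger gene snai1b at 0 against 4.87. The neuronal thymosin gene tmsb was at 0.312 on 2 counts, against 13.4 on 114 counts in heterozygous members.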

How the results depend on the processing

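No paired analysis was possible because each genotype had 1 library and the labels give no replicate numbers. Of the counts of genes and the shares under an alternative, 77 stayed close to the value given and 19 moved. With a minimum of 10 counts, 1427 genes (14.0%) were higher and 3821 (37.6%) lower in homozygous members than in other cells, against 523 (9.03%) and 1578 (27.2%), and 1761 (14.0%) and 4429 (35.2%) in heterozygous members, against 789 (9.17%) and 2363 (27.5%). The share of members differed by -3.95 points with cells of fewer than 3 endothelial genes as the denominator. Between the genotypes, the 30 higher genes (2.06%) became 19 without the top cell of each gene (1.305%), 16 in members with no elavl3 UMI (2.35% of 681), 17 with fewer than 3 placode UMIs (1.39% of 1220) and 12 at a minimum of 100 counts (1.51% of 794). The 74 lower genes (5.08%) became 46 with at least 5 of 7 genes (4.43%), 34 after thinning to 2500 UMIs (3.85%), 27 with no elavl3 UMI (3.96%), 40 with fewer than 3 placode UMIs (3.28%) and 22 at 100 counts (2.77%). There pax6a turned to 0.938 after thinning and dlx4b to 1.67 with fewer than 3 placode UMIs.

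Between elavl3-high and her4-high heterozygous members, 91 higher genes (5.63% of 1616) became 51 without the top cell of each gene (3.16% of 1616). The 175 lower genes (10.8%) became 316 with a 2-fold difference and 3 UMIs (22.8% of 1384) and 99 with the split by elavl3 alone (8.50% of 1165). In the homozygous library 45 higher genes (5.39% of 835) became 23 with at least 5 of 7 genes (4.38% of 525). There 87 lower genes (10.4%) became 132 without the top cell (15.8% of 835). Ratios turned with the split by elavl3 alone for atp1b3a (0.481), si:dkey-102m7.3 (0.797), mif (0.324), wls (0.419), mrpl24 (0.971), dlx3b (5.34), dlx4b (14.2), dynll2a (2.04), her6 (1.33) and sp8a (7.48). In the homozygous library they turned for atp1b3a (0.358), si:dkey-102m7.3 (0), wls (0), fezf2 (3.07), her12 (5.37) and hist1h4l (2.44). With her4.2 and her4.4 only, dlx3b was at 1.06, dlx4b at 1.61 and sp8a at 1.32. With at least 5 of 7 genes emg1 was at 0.522 and mif at 0, after thinning emg1 was at 0.434 and mif at 0, and with a 2-fold difference mif was at 0. Thinning and the 2-fold setting left no homozygous elavl3-high member and gave no value there. The cause was not tested. Without a minimum of UMIs there were 18 homozygous and 57 heterozygous members.

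Limits are the lack of replicates, 18 homozygous members, her4 and her15 copies that cannot be told apart, and genes whose counts lie in 1 cell. Only 2 and 7 cells stand behind the values of the elavl3-high end. Counts and ratios leave out variation between cells, embryos and pools.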
